A study of Mus musculus with 6 samples.

Results

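The KAI1 overexpression experiment compared 2 RNA libraries of EML cells, 1 labelled as KAI1 overexpression and 1 as its overexpression control, and both names are used below as the labels give them. EML is a mouse bone marrow progenitor line that is kept in stem cell factor, the ligand of the receptor Kit, and that can give rise to several blood lineages. The gene Cd82 encodes KAI1, a tetraspanin of the cell membrane. The compared genes were chosen by level alone: of 23146 entries in the deposited tables, the 9805 whose mean over the pair reached 1 RPKM, with small RNA entries left out. These entries are called genes below, and 9681 of them are genes with 1 symbol. RPKM gives reads per kilobase of transcript, scaled to the mapped reads of the library. Both libraries carry the strain label BDF1, the tissue label bone marrow and the cell type label basophil, and no genetic change other than KAI1 is named for either. The vector, the species of the introduced KAI1 sequence, the number of clones and whether both cultures were grown side by side are not given in the sources used here. Besides this pair, 4 further libraries exist in the series, 2 knockdown controls and 2 of KAI1 knockdown, which are used below as levels to set the overexpression pair against. With 1 library a group there is no replicate, no error and no test, so every difference below is between these 2 libraries.

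Tetraspanins gather integrins, receptors and signalling molecules into membrane domains, and KAI1 is best known for holding back metastasis in tumours. Mast cells and basophils are granulated cells that bind IgE through the high-affinity receptor, and they store proteases, histamine and, in rodents, serotonin. Red cell precursors are defined by the factors Gata1 and Klf1, by the erythropoietin receptor and by globins. Progenitors such as EML express genes of several of these lineages at once.

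Depth, estimated from the steps in the low values, was about 24800000 reads for the control and 18700000 for KAI1 overexpression, and from 9480000 to 18600000 in the 4 other libraries. Before any difference is read, it matters how far libraries of 1 label lie apart here. On the same 9805 genes, knockdown control replicate 1 was at least 2-fold higher than replicate 2 in 11.9% and at least 2-fold lower in 8.13%, while the 2 KAI1 knockdown libraries were 2-fold apart in 1.77%. Knockdown control replicate 1 is thus a library that stands apart, and values are given with it and without it where they turn on it. The KAI1 overexpression library stands apart in another respect, which was noticed in the values and is shown because it touches how the pair may be compared. The 4 expressed Y chromosome genes looked at were near 0 in it and detected in the 5 other libraries. Ddx3y, an RNA helicase gene, stood at 7.81 RPKM in the overexpression control and 0.234 RPKM in KAI1 overexpression, against 11.7 and 11.4 RPKM among knockdown controls and 8.89 and 8.84 RPKM after KAI1 knockdown. Eif2s3y, a translation factor gene, stood at 9.01 RPKM in the overexpression control and 0.484 RPKM in KAI1 overexpression, against 11.4 and 16.2 RPKM among knockdown controls and 9.46 and 8.54 RPKM after KAI1 knockdown. Kdm5d, a histone demethylase gene, went from 2.5 to 0.00897 RPKM, about 495 and 1 reads, and lay between 2.5 and 3.03 RPKM in every library but KAI1 overexpression. Uty, another demethylase gene, lay at 0.915 RPKM in the control and between 0.841 and 1.79 RPKM in the knockdown arm, and at about 118 and 0 reads in the overexpression pair. Usp9y was listed at 0 in all 6 libraries. The part that this difference between the 2 cultures has in the results below was not tested. Defining markers of lymphoid cells, macrophages and eosinophils were low: the summed level of 4 lymphoid markers was 1.11 RPKM in the control and 0.163 RPKM in KAI1 overexpression, with Cd3e, Cd79a, Pax5 and Il7r counted, of which Cd3e and Pax5 were listed at 0 in both. That of 3 macrophage markers, Adgre1, Csf1r and C1qa, was 0.195 and 0.429 RPKM, with 1 listed at 0 in each library. That of 3 eosinophil markers, Epx, Prg2 and Ccr3, was 0.169 and 0 RPKM. The 3 stromal and endothelial markers, Col1a1, Pdgfrb and Cdh5, summed to 20.03 and 10.6 RPKM. Most of this was Pdgfrb, at 18.4 and 9.75 RPKM, which lay between 11.5 and 49.8 RPKM in the knockdown arm. Col1a1 stood at 1.63 and 0.873 RPKM in the pair and at most 0.0648 RPKM in the knockdown arm. Beyond these defining markers, some of the longer lists of the same cell types differed. Of 35 lymphoid genes 7 were compared, of which 4 were at least 2-fold lower in KAI1 overexpression and all 7 had a ratio under 0, and their summed level was 106 RPKM in the control and 8.37 RPKM in KAI1 overexpression. Most of the sum in the control was Tcf7, given below, while Cd7 went from 6.54 to 1.3 RPKM, Lef1 from 6.06 to 2.41 RPKM and Dntt, a polymerase gene of lymphoid precursors, from 2.91 to 0.304 RPKM. Of 26 macrophage and dendritic genes 4 were compared and 3 were at least 2-fold higher, with a summed level of 4.65 RPKM in the control and 61.7 RPKM in KAI1 overexpression. The lectin gene Clec10a made up most of the latter, from 0.503 to 51.4 RPKM, and Cd74, the invariant chain gene, went from 2.63 to 6.65 RPKM and the chemokine receptor gene Ccr7 from 0.182 to 2.45 RPKM. Clec10a and Ccr7, under 1 RPKM in the control, were compared only because of their level in KAI1 overexpression, which set their direction. Likewise 2 of the 7 lymphoid genes were compared only because of their level in the control. Of 2 compared eosinophil genes 1 was lower, and of 9 stromal and endothelial genes 0 were 2-fold apart. The median of these 9 was 2.56 and 2.8 RPKM in the pair, against at most 0.228 RPKM in the knockdown arm. Their sum, at 418 and 469 RPKM, lay within the 284 to 967 RPKM of that arm. Over all compared genes, 4.67% were at least 2-fold higher and 4.78% lower. The lymphoid and the macrophage and dendritic genes moved beside the mast cell and red cell genes described below, and their part in those results was not tested. Erythroid, neutrophil and progenitor markers are part of the results below, since EML cells express them.

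**Figure D1:**
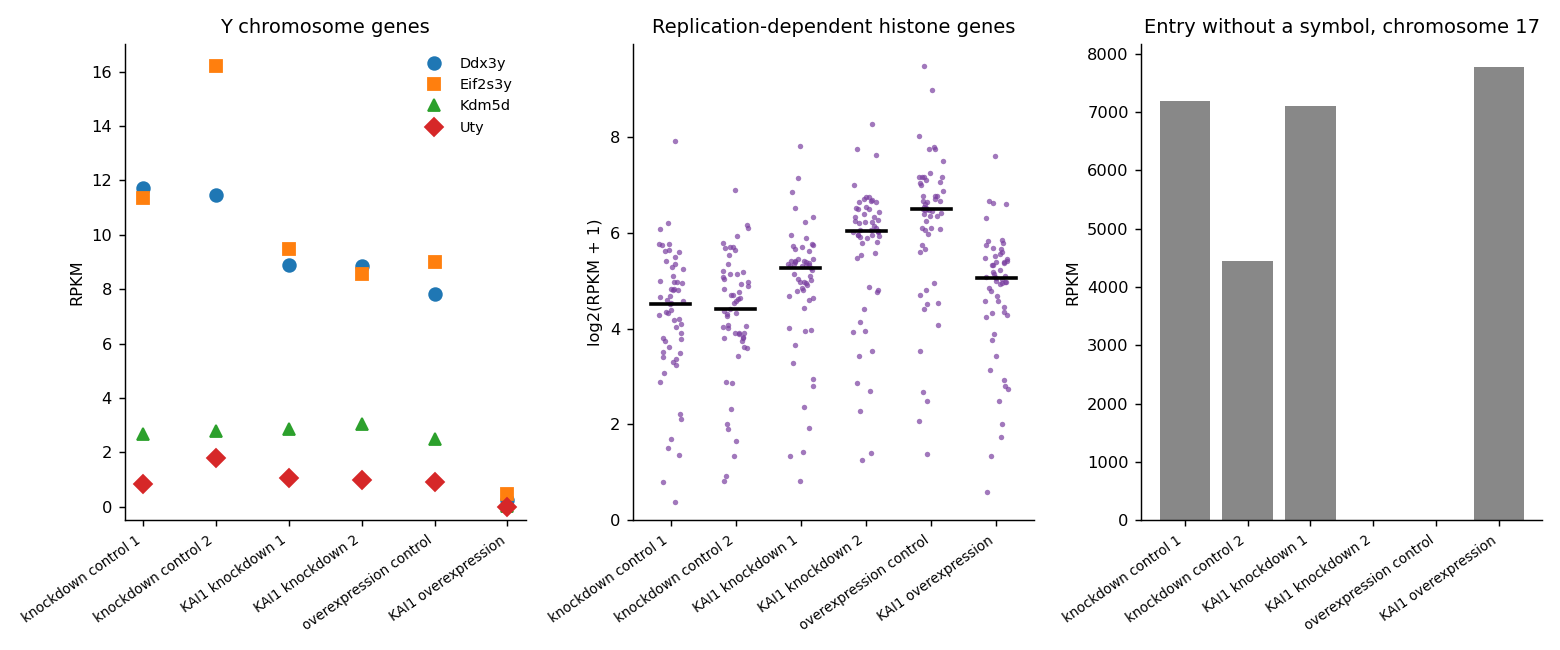
Levels in all 6 libraries of 4 Y chromosome genes (left, RPKM), of the compared replication-dependent histone genes (middle, log2(RPKM + 1), 1 point a gene, bar at the median) and of a long entry without a symbol on chromosome 17 (right, RPKM). The Y chromosome genes are near 0 in KAI1 overexpression, and the histone genes are highest in the overexpression control, where the chromosome 17 entry is listed at 0.

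Cd82 itself (chromosome 2, 93259259 to 93310031 on mm9, the build of the deposited tables) stood at 11.9 RPKM in the overexpression control and 15.2 RPKM in KAI1 overexpression. It was 1.26-fold higher on the RPKM + 1 scale, the scale of all folds and ratios below, which understates the change of low genes. The same gene stood at 43.9 and 13.8 RPKM among knockdown controls and 7.65 and 6.91 RPKM after KAI1 knockdown, so its level in the overexpression library lay within the range of the 2 knockdown controls, and the Cd82 value does not set the library labelled KAI1 overexpression apart from libraries without that label. The sources used here do not say if reads of the introduced sequence could be counted under Cd82. Of the 19 compared tetraspanin genes, Cd82 included, 1 passed the 2-fold limit upward and 2 downward, around a median log2 ratio of -0.04, beside 4.67% and 4.78% of all compared genes. Cd53, a tetraspanin of white blood cells, went from 16.01 to 43.3 RPKM. Tspan33 went from 7.84 to 0.135 RPKM and Tspan9 from 2.05 to 0.127 RPKM. Cd63, which marks granule membranes, went from 549.5 to 919.6 RPKM, and Cd151, Cd37 and Cd9, partners of integrins and other receptors, went from 40.1 to 42.3 RPKM, from 161 to 156 RPKM and from 25.3 to 37.3 RPKM. Of 24 compared integrins and other adhesion partners, 3 were higher and 2 lower, around a median of -0.07, and the lower count is near the share over all genes. Itgb7, a chain of the mucosal homing integrin, went from 14.2 to 45.03 RPKM, and Adam8, a membrane protease, went from 1.09 to 19.3 RPKM. Itgb5 went from 9.0 to 0.837 RPKM and Itgb2 from 8.64 to 2.63 RPKM.

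Of the 9805 compared genes, 458 or 4.67% were at least 2-fold higher in KAI1 overexpression than in its control and 469 or 4.78% at least 2-fold lower. The counts of each gene list are to be read beside these shares. These counts were 243 and 219 with a pseudocount of 5 RPKM in place of 1, and 301 and 275 where a mean of at least 5 RPKM was required. Differences of at least 4-fold were found in 137 higher and 119 lower genes, and of at least 8-fold in 48 and 39. The bulk of genes lay close together: the middle 50% had log2 ratios from -0.27 to 0.28, around a median of 0.007. The limit of 2-fold is not a natural gap, since 65 genes lay within 0.1 log2 above it and 80 within 0.1 below it on the higher side, and 65 and 89 on the lower side. Among the higher genes 131 had less than 1 RPKM in the control, and among the lower genes 153 had less than 1 RPKM in KAI1 overexpression. These passed the level filter only through the library in which they are higher, so the filter set their direction. The same holds for list members under 1 RPKM in 1 library, among them 7 of 19 red cell membrane and enzyme genes and 6 of 31 immediate early genes.

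**Figure D2:**
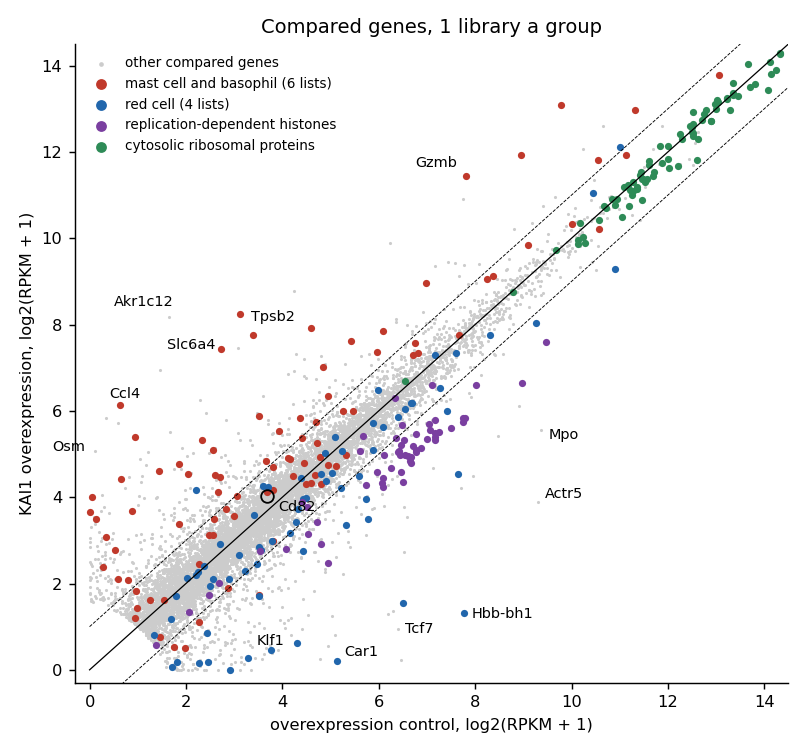
Level of each compared gene in the control (horizontal) and under KAI1 overexpression (vertical), both as log2(RPKM + 1). The solid line is equality and the dashed lines 2-fold; mast cell and basophil genes are frequent above the upper line, red cell and histone genes below the lower line, and the ribosomal protein genes lie between them.

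The clearest group among the higher genes was that of mast cell and basophil granules. Of 16 compared granule protease genes, 11 were at least 2-fold higher and 2 lower, around a median log2 ratio of 1.93, beside 4.67% and 4.78% of all compared genes and an overall median of 0.007. Of the 16, 5 were under 1 RPKM in 1 library of the pair, so the level filter set their direction. Mcpt8, the protease gene that marks basophils, stood at 491 RPKM in the overexpression control and 3908 RPKM in KAI1 overexpression, against 159.6 and 389 RPKM among knockdown controls and 234 and 116 RPKM after KAI1 knockdown. Gzmb, which encodes granzyme B, stood at 223 RPKM in the overexpression control and 2775 RPKM in KAI1 overexpression, against 554 and 447 RPKM among knockdown controls and 365 and 478 RPKM after KAI1 knockdown. In both genes the overexpression library was the highest of all 6. The chymase gene Cma1 stood at 879 RPKM in the overexpression control and 8629 RPKM in KAI1 overexpression, and the tryptase gene Tpsb2 at 7.72 RPKM in the overexpression control and 303 RPKM in KAI1 overexpression. Of these, Cma1 reached 22312 RPKM and Tpsb2 3379 RPKM in knockdown control replicate 1, and both lay below the overexpression library in the other 3 libraries of the knockdown arm, with Cma1 at most 2618 RPKM and Tpsb2 at most 45.1 RPKM there. Mcpt4, a connective tissue type chymase gene, went from 23.2 to 239.6 RPKM, and Mcpt2, a mucosal type one, from 2542 to 7972 RPKM. Tpsab1 went from 0.0402 to 15 RPKM, about 1 and 325 reads, and Prss34, a basophil protease gene, from 0.212 to 4.2 RPKM. Cpa3, the carboxypeptidase of mast cell granules, was high in both libraries at 2246 and 3895 RPKM and did not reach 2-fold. The lower members were Gzma, from 2.97 to 0.42 RPKM, and the cathepsin gene Ctsw, from 10.5 to 2.34 RPKM. Tryptase genes, and Mcpt genes among themselves, are alike in sequence, which leaves the division of reads within each family uncertain. In bulk RNA, more cells of a type and more RNA per cell cannot be told apart.

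Among the genes of amine handling, 3 of 6 were at least 2-fold higher and 0 lower, beside 4.67% and 4.78% of all compared genes. Of the 6, 2 were under 1 RPKM in 1 library, with their direction set by the level filter. Slc6a4, the serotonin transporter, stood at 5.65 RPKM in the overexpression control and 172 RPKM in KAI1 overexpression, a 26.1-fold difference, against 357 and 35.7 RPKM among knockdown controls and 22.2 and 11.1 RPKM after KAI1 knockdown. Tph1, the rate-limiting enzyme of peripheral serotonin synthesis, went from 0.917 to 41.2 RPKM. Hdc, which makes histamine, went from 25.1 to 52.8 RPKM, just past 2-fold, and Slc18a2, which loads amines into vesicles, went the other way, from 21.4 to 18.9 RPKM. Hdc stood at 902 and 150 RPKM among knockdown controls and 32.7 and 64.2 RPKM after KAI1 knockdown. For Hdc, KAI1 overexpression thus lay below every library of that arm except KAI1 knockdown replicate 1. For Slc6a4 and Tph1 alike, knockdown control replicate 1 was highest, with Slc6a4 at 357 and Tph1 at 266 RPKM, KAI1 overexpression second and the overexpression control lowest.

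For the IgE receptor and its proximal signalling, 5 of 16 genes were at least 2-fold higher and 0 lower. Their median log2 ratio was 0.87, and the shares over all compared genes were 4.67% and 4.78%. Of the 16, 3 were under 1 RPKM in 1 library, Fcer1a and Ms4a2 among them, and the level filter set their direction. The IgE-binding chain gene Fcer1a went from 0.261 to 7.41 RPKM, about 6 and 139 reads. It stood at 24.2 and 0 RPKM among knockdown controls and 0 and 0.289 RPKM after KAI1 knockdown. The beta chain gene Ms4a2 went from 0.443 to 5.86 RPKM, about 11 and 111 reads, and the gamma chain gene Fcer1g, which other receptors share, from 1488 to 3623 RPKM. Ms4a2 stood at 39.6 and 3.71 RPKM among knockdown controls and 1.25 and 2.71 RPKM after KAI1 knockdown. In Fcer1a and Ms4a2 alike, knockdown control replicate 1 was thus the highest library and KAI1 overexpression lay below it. The overexpression control, labelled basophil, held few reads of Fcer1a and Ms4a2, while Mcpt8, given above, stood at 491 RPKM in it. The adapter gene Lat2 went from 125 to 499.6 RPKM and the phosphatase gene Inpp5d from 29.8 to 79.95 RPKM. The kinases downstream differed less: Lyn went from 16.9 to 28.3 RPKM, Btk from 37.2 to 63.2 RPKM and Syk, in the other direction, from 26.99 to 18.9 RPKM. The promoter of Ms4a2 is shown because it holds 3 matches to the letters bound by GATA factors. Gata2, a GATA factor of mast cells, stood at 112 and 161 RPKM and Gata1 at 36.7 and 32.3 RPKM, both short of 2-fold. The sequence is from RefSeq on GRCm38.p6, chr19:11623720-11623969, minus strand, the 250 bases before the start of the gene, with AGATAA or its reverse complement in capitals at -224, -37 and -11 from the start.
Ms4a2: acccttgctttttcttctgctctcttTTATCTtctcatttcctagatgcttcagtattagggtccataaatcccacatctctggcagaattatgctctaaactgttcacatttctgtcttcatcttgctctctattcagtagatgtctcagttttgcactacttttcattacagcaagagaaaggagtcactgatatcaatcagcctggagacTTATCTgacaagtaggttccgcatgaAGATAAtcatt

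Chemokine genes held the largest differences of the list of type 2 cytokines, chemokines and their receptors. In this list 9 of 20 genes were at least 2-fold higher and 0 lower, beside 4.67% and 4.78% of all compared genes. Under 1 RPKM in 1 library lay 5 of the 20, whose direction the level filter set. Ccl4, a chemokine that draws in monocytes and T cells, stood at 0.548 RPKM in the overexpression control and 68.8 RPKM in KAI1 overexpression, about 9 and 851 reads and 45.1-fold apart, against 2.98 and 1.23 RPKM among knockdown controls and 0.79 and 0.312 RPKM after KAI1 knockdown. Ccl9 stood at 9.56 RPKM in the overexpression control and 217 RPKM in KAI1 overexpression, against 5.34 and 22.7 RPKM among knockdown controls and 27.1 and 13.2 RPKM after KAI1 knockdown. Ccl3 was listed at 0 in the control and stood at 11.7 RPKM in KAI1 overexpression, with at most 3.31 RPKM in the knockdown arm. Thus all 3 chemokine genes were highest in KAI1 overexpression, knockdown control replicate 1 included. Together with Ccl6 they are neighbours on chromosome 11 (83386419 to 83478185), where 4 compared genes in a row were at least 2-fold higher. Il13, a type 2 cytokine, went from 1.71 to 23.2 RPKM and Il4 from 16.2 to 28.8 RPKM, while Il6 went from 12.9 to 16.95 RPKM and Tnf from 26.3 to 29.5 RPKM. Among the receptors, Il4ra went from 4.05 to 39.3 RPKM, the IL-33 receptor gene Il1rl1 from 19.7 to 56.01 RPKM, the shared beta chain Csf2rb from 66.98 to 232 RPKM and its IL-3 specific copy Csf2rb2 from 42.2 to 196 RPKM. Il9r went the other way, from 6.27 to 2.72 RPKM, and Il5ra from 1.77 to 0.691 RPKM, both short of 2-fold. The chemokine receptor gene Ccr2 went from 1.03 to 15.4 RPKM and Ccr1 from 0.449 to 2.1 RPKM.

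Of 22 further surface proteins and regulators of mast cells and basophils, 11 were at least 2-fold higher and 1 lower. For this and the next 2 lists, the shares over all compared genes were 4.67% and 4.78%. Cd200r3, an activating receptor of both cell types, went from 0.0997 to 10.3 RPKM, the activation marker Cd69 from 4.92 to 33.3 RPKM, the receptor genes Pilra and Pilrb1 from 10.4 to 57.7 RPKM and from 27.6 to 129 RPKM, and Rab27b, a GTPase of granule secretion, from 3.15 to 22.2 RPKM. Mitf, a transcription factor of mast cells, went from 2.61 to 9.38 RPKM. Kit, the receptor on which both mast cells and EML cells depend, went from 107 to 189 RPKM and stayed under 2-fold. The lower gene was Siglecf, from 2.37 to 0.451 RPKM. Of 10 genes of eicosanoid synthesis 2 were higher and 1 lower, with a median of 0.19. Hpgds, which makes prostaglandin D2, went from 2.61 to 26.3 RPKM. Of 18 genes of the serglycin and heparin side of the granule, 3 were higher and 0 lower, with a median of -0.03. Papss2, which supplies sulfate, went from 48.4 to 155 RPKM.

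**Figure D3:**
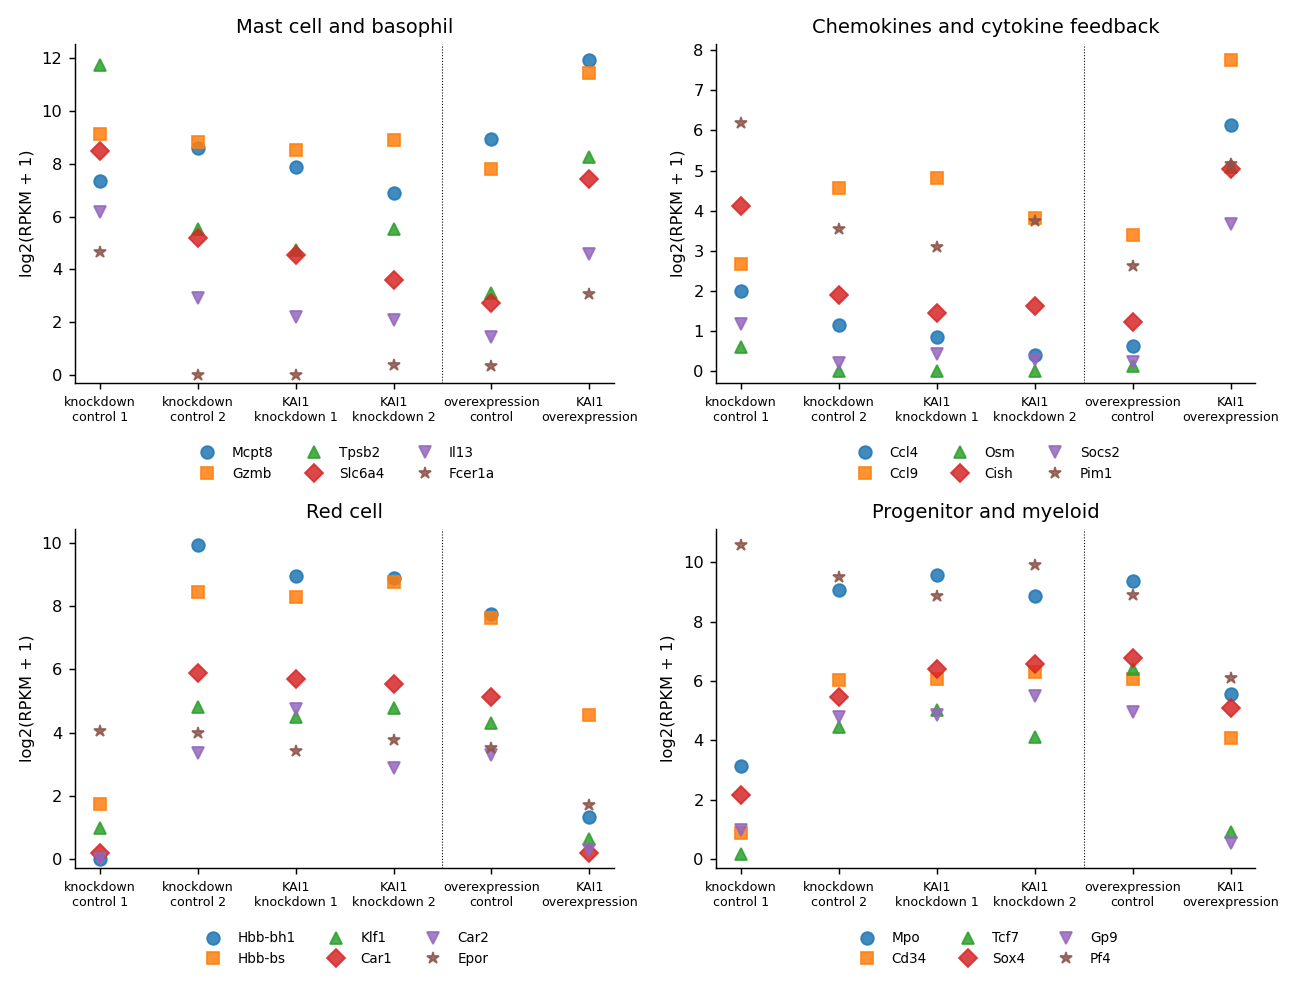
Level in log2(RPKM + 1) of 24 genes in all 6 libraries, 1 point a library, in 4 groups; the dotted line parts the knockdown arm from the overexpression pair. In the mast cell, red cell and progenitor panels most genes of KAI1 overexpression lie on the side of knockdown control 1, while Ccl4, Ccl9, Osm, Cish and Socs2 are highest in KAI1 overexpression.

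Genes outside the lists were among the highest ratios too. Akr1c12, an aldo-keto reductase gene, had the highest of all, from 2.11 to 287 RPKM or 92.7-fold, with 124 RPKM in knockdown control replicate 1 and at most 1.18 RPKM in the 3 others of that arm. Akr1c13, a close relative, went from 18.04 to 441 RPKM. The inhibitory receptor genes Lilr4b and Lilrb4a went from 1.74 to 123 RPKM and from 3.42 to 179.5 RPKM. These also lay high in knockdown control replicate 1, at 147 and 124 RPKM, as did Clec10a of the macrophage and dendritic list, at 553 RPKM. Mgst2, a microsomal glutathione transferase gene that can make leukotriene C4, did not share that pattern. It stood at 7.41 RPKM in the overexpression control and 173 RPKM in KAI1 overexpression, against 18.01 and 25.2 RPKM among knockdown controls and 20.95 and 18.1 RPKM after KAI1 knockdown. Pea15a stood at 0.267 RPKM in the overexpression control and 56.4 RPKM in KAI1 overexpression, 45.3-fold apart, against 62.95 and 12.9 RPKM among knockdown controls and 12.3 and 5.96 RPKM after KAI1 knockdown. The control was thus the lowest of the 6 libraries in Pea15a, and KAI1 overexpression lay above 3 of the 4 libraries of the knockdown arm and below knockdown control replicate 1. Hipk3, a kinase gene, went from 3.9 to 75.4 RPKM but ranged from 4.64 to 171 RPKM in the knockdown arm, across libraries of the same label.

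Targets of cytokine signalling through STAT5 were looked at because some of them had been seen among the higher genes. Their list was put together after the values were seen, so its count is set by the choice of members and supports nothing: 6 of 10 were at least 2-fold higher and 2 lower, beside 4.67% and 4.78% of all compared genes. Cish, a feedback inhibitor of that pathway, stood at 1.33 RPKM in the overexpression control and 31.9 RPKM in KAI1 overexpression, against 16.3 and 2.72 RPKM among knockdown controls and 1.73 and 2.09 RPKM after KAI1 knockdown. Socs2, another feedback inhibitor, stood at 0.177 RPKM in the overexpression control and 11.8 RPKM in KAI1 overexpression, against 1.25 and 0.15 RPKM among knockdown controls and 0.347 and 0.203 RPKM after KAI1 knockdown. Osm, the cytokine oncostatin M, stood at 0.0839 RPKM in the overexpression control and 32.8 RPKM in KAI1 overexpression, about 5 and 1399 reads, and at most 0.513 RPKM in the knockdown arm. In these 3 genes KAI1 overexpression was the highest of all 6 libraries. Pim1, a survival kinase gene, went from 5.1 to 34.5 RPKM, Socs1 from 2.95 to 16.9 RPKM and the cyclin gene Ccnd2 from 23.9 to 66.6 RPKM. The 2 lower members were Socs3, from 6.48 to 0.862 RPKM, the feedback inhibitor of STAT3 signalling, and Bcl6, from 3.35 to 0.843 RPKM. Stat3 itself went from 53.2 to 15.2 RPKM and Stat5a from 58.3 to 33.3 RPKM. Lif, the neighbour of Osm on chromosome 11, went from 0.842 to 11.8 RPKM.

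The immediate early list, whose genes respond within minutes to growth factors and to handling, was split. Of 31 compared genes, 8 were at least 2-fold higher and 10 lower, around a median log2 ratio of -0.17. All compared genes gave shares of 4.67% and 4.78%. Its higher members included Cish, Socs1, Socs2 and Pim1, which the STAT5 list holds too, and Dusp4, from 2.38 to 12.4 RPKM. The transcription factor genes of the list were split, with Jun and Fosl2 higher at log2 ratios of 1.04 and 1.36. On the lower side stood the transcription factor genes Egr1, from 110.5 to 42.97 RPKM, and Fos, from 4.44 to 0.45 RPKM, with Junb from 167 to 74.2 RPKM and Ier2 from 239 to 78.99 RPKM. The RNA decay factor gene Zfp36 went from 40.0 to 6.81 RPKM, the phosphatase gene Dusp2 from 89.2 to 30.3 RPKM, Gadd45b from 12.2 to 1.73 RPKM and Btg2, an antiproliferative gene and p53 target, from 10.5 to 1.12 RPKM. Between the knockdown controls the same list lay mostly higher in replicate 1, with 14 genes higher and 1 lower. Of 21 compared p53 targets 0 were higher and 4 lower, and the median was -0.48.

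Globin genes were lower in KAI1 overexpression, and so was a minority of the other red cell genes. All 6 compared globin genes passed 2-fold downward, beside 4.78% of all compared genes, around a median log2 ratio of -3.0. The embryonic beta-like globin Hbb-bh1 stood at 218 RPKM in the overexpression control and 1.51 RPKM in KAI1 overexpression, about 3307 and 17 reads, against 0 and 988 RPKM among knockdown controls and 501 and 474 RPKM after KAI1 knockdown. Hbb-y, the other embryonic one, stood at 90.3 RPKM in the overexpression control and 1.93 RPKM in KAI1 overexpression, against 1.29 and 271 RPKM among knockdown controls and 329.6 and 344 RPKM after KAI1 knockdown. Hence in these 2 genes KAI1 overexpression lay near knockdown control replicate 1, and the overexpression control lay, on the log scale, nearer the other 3 libraries. The adult genes differed less: Hbb-bs went from 199 to 22.4 RPKM and Hbb-bt from 1898 to 624 RPKM, and the alpha globin gene Hba-a2 from 611 to 263 RPKM. For Hbb-bs the knockdown controls stood at 2.36 and 351 RPKM, so KAI1 overexpression lay between them. Hba-x went from 6.49 RPKM to a listed 0. Hbb-bs and Hbb-bt are almost identical, which leaves the division of their reads uncertain. The 4 beta-like genes stand in a row on chromosome 7 (110961042 to 111001721), and 4 of 4 were lower. The promoter of Hbb-bs is shown as that of an adult globin gene that carries the letters of the CACCC box, CCACACCC, known to be bound by Klf1. Those letters stood in 1 of 19 promoters of the globin and red cell membrane lists, or 5.26%, beside 4.63% of all compared promoters. The sequence is from RefSeq on GRCm38.p6, chr7:103827929-103828178, minus strand, the 250 bases before the start, with capitals on AGATAA at -210, CCACACCC at -93 and CCAAT at -76.
Hbb-bs: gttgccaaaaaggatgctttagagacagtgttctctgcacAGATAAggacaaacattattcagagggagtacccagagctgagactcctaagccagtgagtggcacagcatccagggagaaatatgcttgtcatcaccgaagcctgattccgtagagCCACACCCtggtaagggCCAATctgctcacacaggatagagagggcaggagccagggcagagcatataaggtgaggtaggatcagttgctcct

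Of 18 compared erythroid factor genes, 6 were at least 2-fold lower and 0 higher, around a median of -0.54. Over all compared genes, 4.78% were lower and 4.67% higher. Klf1, the factor that drives adult globin genes, stood at 18.7 RPKM in the overexpression control and 0.533 RPKM in KAI1 overexpression, about 709 and 15 reads, against 0.949 and 26.98 RPKM among knockdown controls and 21.4 and 26.5 RPKM after KAI1 knockdown. Gata1 was almost level, at 36.7 and 32.3 RPKM, whereas Zfpm1, which encodes its cofactor FOG1, stood at 53.8 RPKM in the overexpression control and 10.2 RPKM in KAI1 overexpression, against 14.2 and 15.3 RPKM among knockdown controls and 29.6 and 42.3 RPKM after KAI1 knockdown. The control was the highest and KAI1 overexpression the lowest of the 6 libraries in Zfpm1. Epor, the erythropoietin receptor, stood at 10.4 RPKM in the overexpression control and 2.27 RPKM in KAI1 overexpression, against 15.6 and 14.8 RPKM among knockdown controls and 9.63 and 12.7 RPKM after KAI1 knockdown, and was thus lowest in KAI1 overexpression, knockdown control replicate 1 included. Hemgn went from 52.6 to 14.6 RPKM, Lmo2 from 20.7 to 5.79 RPKM and Gfi1b from 36.4 to 17.5 RPKM, while Tal1 at 83.7 and 57.2 RPKM and Nfe2 at 67.2 and 48.2 RPKM did not reach 2-fold. In the haem pathway 4 of 27 genes were lower and 1 higher, around a median of -0.47. Alad, an early enzyme of haem synthesis, went from 38.8 to 9.31 RPKM, Tfr2 from 4.38 to 0.798 RPKM, and Fth1, the heavy chain of the iron store ferritin, was the higher gene, from 2068 to 4395 RPKM. Of 19 red cell membrane and enzyme genes 8 were lower and 1 higher, around a median of -0.56, and the 8 became 3 both with a pseudocount of 5 RPKM and where a mean of at least 5 RPKM was required. The carbonic anhydrase genes Car1 and Car2 went from 33.95 to 0.145 RPKM and from 8.76 to 0.208 RPKM. The higher gene was Trib3, from 3.62 to 17.1 RPKM, which the amino acid response list holds too.

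Some progenitor, early myeloid and platelet genes also lay lower, though not as whole lists. Their counts stand beside 4.78% lower and 4.67% higher over all compared genes. Mpo, the myeloperoxidase of granulocyte precursors, stood at 661 RPKM in the overexpression control and 45.8 RPKM in KAI1 overexpression, against 7.84 and 538 RPKM among knockdown controls and 750.3 and 469.8 RPKM after KAI1 knockdown. Of 21 compared neutrophil and monocyte genes, 5 were lower and 5 higher: Lyz2 went from 4.66 to 0.158 RPKM and Prtn3 from 3.36 RPKM to a listed 0, while the NADPH oxidase genes Ncf1 and Ncf4 went from 2.18 to 44.7 RPKM and from 4.54 to 31.3 RPKM and the monocyte marker Ly6c2 from 26.2 to 85.8 RPKM. Ncf1 was highest in KAI1 overexpression, with at most 4.67 RPKM in the knockdown arm. Of 26 stem and progenitor genes 7 were lower and 2 higher. The surface marker Cd34 went from 66.4 to 15.9 RPKM, Ly6a, which encodes Sca-1, from 125 to 51.5 RPKM, and Sox4 from 109.8 to 33.03 RPKM. Tcf7, a mediator of Wnt signalling that marks early progenitors and T cells, stood at 83.3 RPKM in the overexpression control and 0.912 RPKM in KAI1 overexpression, about 5102 and 42 reads, against 0.144 and 20.7 RPKM among knockdown controls and 31.4 and 16.4 RPKM after KAI1 knockdown. The control was the highest of the 6 libraries in Tcf7. The higher genes of the list were Cd93, from 0.321 to 6.61 RPKM, and Erg, from 23.7 to 51.8 RPKM. Of 16 megakaryocyte genes 3 were lower and 3 higher. Gp9 and Pf4, a platelet receptor chain and a platelet chemokine, went from 29.8 to 0.467 RPKM and from 479 to 67.9 RPKM, and F2r and F2rl2, receptors of thrombin, went from 81.2 to 278 RPKM and from 7.67 to 39.3 RPKM. The factor Spi1 was near level at 46.1 and 52.5 RPKM, as was Cebpa at 4.11 and 4.58 RPKM.

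**Figure D4:**
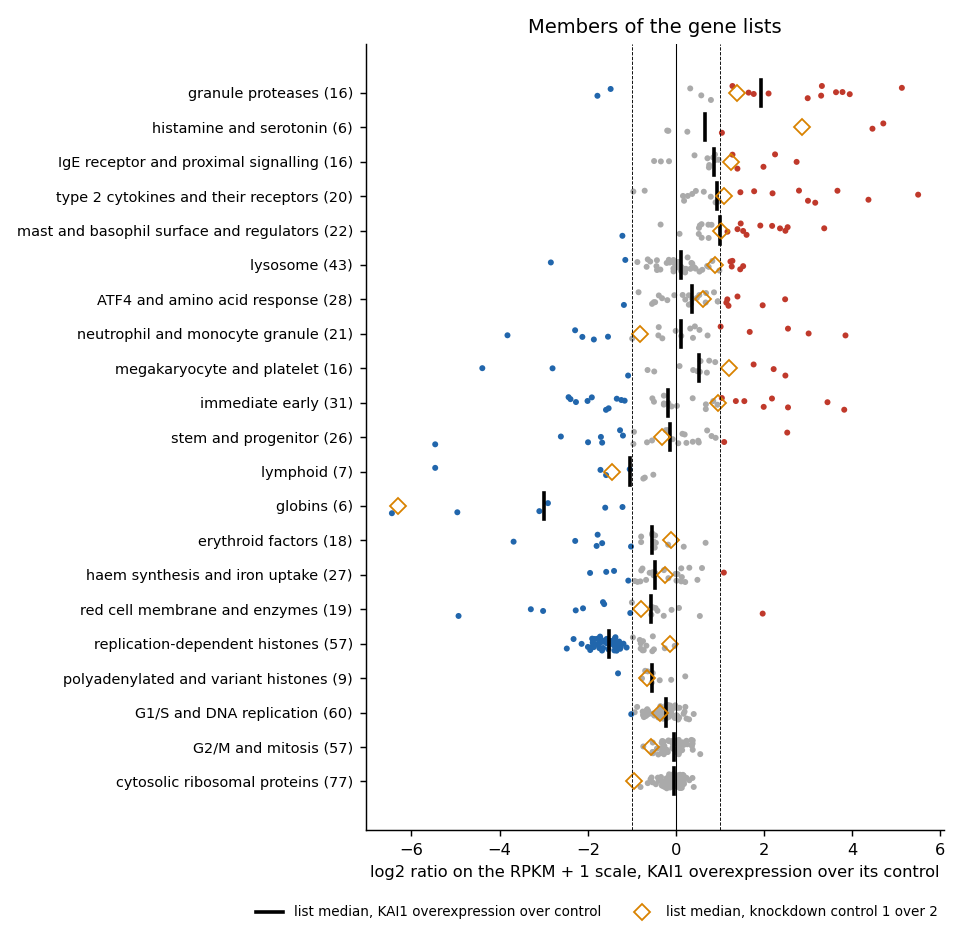
Log2 ratio of KAI1 overexpression over its control for each compared member of 21 gene lists (1 point a gene, red at least 2-fold higher, blue at least 2-fold lower, number of genes in brackets). Black bars are list medians and open diamonds the medians of knockdown control 1 over 2 for the same genes. Bar and diamond lie on the same side in every drawn list except the neutrophil and monocyte granule list and the immediate early list. In the replication-dependent histone list they lie far apart, at -1.51 in the overexpression pair and at -0.14 between the knockdown controls.

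Histone genes of the replication-dependent kind, which are transcribed in S phase and whose mRNAs end in a stem-loop in place of a poly(A) tail, were the largest single group among the lower genes. Of 57 compared, 44 lay at least 2-fold below the control and 0 above it, beside 4.78% and 4.67% of all compared genes. All 57 had a ratio under 0, around a median log2 ratio of -1.51. H2ac10 went from 713 to 192 RPKM, H2ac11 from 502 to 99.6 RPKM and H4c4 from 257 to 96.6 RPKM. H2bc8 stood at 100.3 RPKM in the overexpression control and 29.3 RPKM in KAI1 overexpression, against 14.1 and 34.1 RPKM among knockdown controls and 58.1 and 72.6 RPKM after KAI1 knockdown. Here the control was the highest library: the median over the histone list was 88.5 RPKM in the control, 32.3 RPKM in KAI1 overexpression, 21.7 and 20.2 RPKM in the knockdown controls and 37.6 and 64.9 RPKM in the KAI1 knockdown. The medians form a graded series, in which KAI1 knockdown replicate 2 is next to the control. The order of libraries in this list thus differs from that in the mast cell and red cell lists. Of 9 histone genes that are variants or polyadenylated, 1 was lower, H2ax, from 137 to 54.7 RPKM. Of 60 G1/S and replication genes 1 was lower, Tk1 at 145 and 71.2 RPKM, and of 57 G2/M genes 0 were 2-fold apart, with medians of -0.22 and -0.05. Among other RNAs looked up for lacking a poly(A) tail, chosen after their values were seen, the directions were mixed. Rmrp went from 1284 to 466 RPKM and Rpph1, just under 2-fold, from 337 to 171 RPKM. The summed level of small RNA entries was 229622 RPKM in the control and 161014 RPKM in KAI1 overexpression. The long noncoding RNAs Malat1 and Neat1, looked up with them, went the other way, from 53.6 to 77.2 RPKM and from 61.7 to 109.9 RPKM. The entry without a symbol on chromosome 17 (39979942 to 39985774, 5833 bp) was listed at 0 in the control and at 7777 RPKM in KAI1 overexpression, and it is kept out of the compared genes. The only other library with a listed 0 for that entry, KAI1 knockdown replicate 2, was the second highest in the histone list. The part that RNA selection may have in the histone difference was not tested. Many of these genes are almost identical, which leaves the division of reads among them uncertain.

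The histone genes of chromosome 13 stand in clusters, in which runs of 8, 7, 7, 6, 6 and 3 neighbouring compared genes were lower, all of them histone genes except Prss16. The stretch between H2ac8 and H2bc8 is shown because both genes start from it in opposite directions, and both were lower, H2ac8 from 67.5 to 17.8 RPKM and H2bc8 from 100.3 to 29.3 RPKM. It is from RefSeq on GRCm38.p6, chr13:23571221-23571399, plus strand, the 179 bases between the starts, with capitals on the octamer ATTTGCAT at -59 from the start of H2bc8 and on CCAAT or its reverse complement at -178 and -150.
H2bc8: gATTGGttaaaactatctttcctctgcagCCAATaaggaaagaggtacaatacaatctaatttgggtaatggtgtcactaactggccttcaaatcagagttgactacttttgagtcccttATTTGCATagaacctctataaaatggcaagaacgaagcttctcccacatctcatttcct

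The promoter motifs were counted over both strands in windows of 300 bases, 250 before and 50 after the start, which RefSeq gave for 7897 of the 9681 compared genes with 1 symbol. A match is a description of letters. CCAAT occurred in 43.6% of compared promoters and in 84.6% of 52 histone promoters, and the octamer ATTTGCAT in 1.48% and 23.1%. The letters AGATAA occurred in 7.95% of all compared promoters, in 12.6% of 357 promoters of higher genes and in 13.7% of 322 promoters of lower genes without histones. Both shares lay above that of the compared promoters but near the 12.7% of all 27025 promoters of the table. CCACACCC was found in 4.63%, 7.0% and 8.07% of these, TGACTCA, the letters of AP-1 sites, in 4.13%, 7.56% and 4.66%, and the E-box letters CACCTG in 19.8%, 21.6% and 29.8%. Over all 27025 promoters these were 4.09%, 5.95% and 22.6%, and CCAAT and the octamer stood in 41.1% and 1.97%. Some of these matches overlap in a promoter, and the counts were not tested.

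In lists of metabolism, secretion and signalling most genes were not 2-fold apart, and the counts of the chaperone and TGF-beta lists lie near the 4.67% higher and 4.78% lower of all compared genes. Of 28 genes of the ATF4 and amino acid response, 6 were higher and 1 lower: the amino acid transporter genes Slc7a5 and Slc3a2, which form 1 transporter, went from 61.4 to 163 RPKM and from 103 to 231 RPKM, and the stress gene Nupr1 from 10.1 to 60.6 RPKM. Among chaperones of the endoplasmic reticulum 2 of 36 were higher and 1 lower. The lower one, Pdia4, a disulfide isomerase gene, stood at 353 RPKM in the overexpression control and 41.9 RPKM in KAI1 overexpression, against 252 and 162 RPKM among knockdown controls and 18.9 and 24.5 RPKM after KAI1 knockdown. In Pdia4, KAI1 overexpression therefore lay toward the level of the KAI1 knockdown, and its control toward that of the knockdown controls. The glycolysis and hypoxia list held 4 higher and 5 lower genes of 37, with Ndrg1 from 26.95 to 154 RPKM and Egln3 from 82.6 to 21.7 RPKM. Of 43 lysosome genes 5 were higher, among them the protease gene Ctsd, from 202 to 556 RPKM, and 2 lower, among them Acp5, from 9.38 to 0.452 RPKM. Sqstm1, an autophagy receptor gene, went from 142 to 649 RPKM. The interferon list had 2 higher genes and 1 lower of 16, with Ifitm1 from 1608 to 6202 RPKM. In the TGF-beta list 1 was higher and 1 lower of 16, and the lower was Smad1, from 19.9 to 5.79 RPKM. Among the cyclins, Ccnd1 went from 15.7 to 3.33 RPKM, opposite to Ccnd2. Of the lists not yet named, 7 of 27 cytokine and growth factor receptors were higher and 4 lower, 4 and 3 of 24 myeloid fate factors, 1 and 2 of 23 Bcl2 family genes, 2 and 1 of 27 heat shock and oxidative stress genes, and 1 and 3 of 18 cyclins and CDK inhibitors.

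Groups that carry basic functions were level. Of 77 ribosomal protein genes, 59 genes of the respiratory chain, 35 of ribosome biogenesis, 29 of cholesterol synthesis and 13 snoRNA hosts, 0 were 2-fold apart in either direction, and their median log2 ratios ran from -0.10 to 0.22. The ribosomal protein genes had a median of -0.05 in the overexpression pair and of -0.96 between the knockdown controls, where 34 of 77 were at least 2-fold lower in replicate 1. This list is therefore one in which the overexpression pair did not lie apart in the way that the knockdown controls did. Single genes that swing between libraries of 1 label were also found among the 2-fold genes, chosen here after their values were seen. Ercc2 stood at 208 RPKM in the overexpression control and 17.4 RPKM in KAI1 overexpression, against 13.1 and 8.53 RPKM among knockdown controls and 268 and 19.1 RPKM after KAI1 knockdown. Kctd12 stood at 0.201 RPKM in the overexpression control and 15.6 RPKM in KAI1 overexpression, against 0.0332 and 0.208 RPKM among knockdown controls and 0.0986 and 56.5 RPKM after KAI1 knockdown. Actr5 stood at 630.3 RPKM and Tnni1 at 86.8 RPKM in the control, while the other 5 libraries reached at most 35.7 and 1.59 RPKM, so their place among the lowest ratios rests on the control.

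Many of the genes that lay apart in the overexpression pair lay apart between the knockdown controls too, which carry 1 label. Of the 458 higher genes, 272 or 59.4% were also at least 2-fold higher in knockdown control replicate 1 than in replicate 2, and 28 were 2-fold lower there, beside 11.9% and 8.13% of all compared genes. Of the 469 lower genes, 207 or 44.1% were 2-fold lower in replicate 1 and 57 were 2-fold higher. Across the compared genes the log2 ratios of the pairs had a Pearson r of 0.44 and a Spearman rho of 0.30, a description over genes, which are not independent. The pairs share no library. Of the 7 mast cell and basophil lists, 6 had a median log2 ratio above 0 in both pairs, with 1.93 and 1.38 for granule proteases and 0.19 and 0.01 for eicosanoid synthesis, the overexpression pair first. The exception was serglycin and heparin synthesis, with -0.03 and 0.76. The medians of all 4 red cell lists were below 0 in both, with -3.0 and -6.30 for globins and -0.54 and -0.12 for erythroid factors. Lists of other functions kept to 1 side too, such as lysosome, with 0.12 and 0.89, and lymphoid, with -1.05 and -1.44. The immediate early list did not, with -0.17 and 0.95.

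The next counts cover only genes chosen for lying 2-fold apart in the pair, which makes a place outside another range likely by construction. No share over all compared genes stands beside them, so they are a description and do not tell which library differs. Set against all 4 libraries of the knockdown arm, KAI1 overexpression alone met the condition of lying above all of them in 131 of the 458 higher genes. The control alone met that of lying below all of them in 163, in 67 both conditions held, and in 97 neither did. Without knockdown control replicate 1 the counts were 202, 23, 230 and 3. Of the 469 lower genes, KAI1 overexpression alone lay below all 4 in 158, the control alone above all 4 in 149, both held in 56 and neither in 106. Without knockdown control replicate 1 these were 238, 78, 146 and 7. Measured this way, Ccl4, Osm, Cish and Socs2 lay above the whole knockdown arm in KAI1 overexpression, with the control inside its range for Ccl4, Osm and Socs2 and below it for Cish. Mcpt8 exceeded the knockdown arm in both libraries of the pair, and Gzmb exceeded it in KAI1 overexpression and lay below it in the control.

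**Figure D5:**
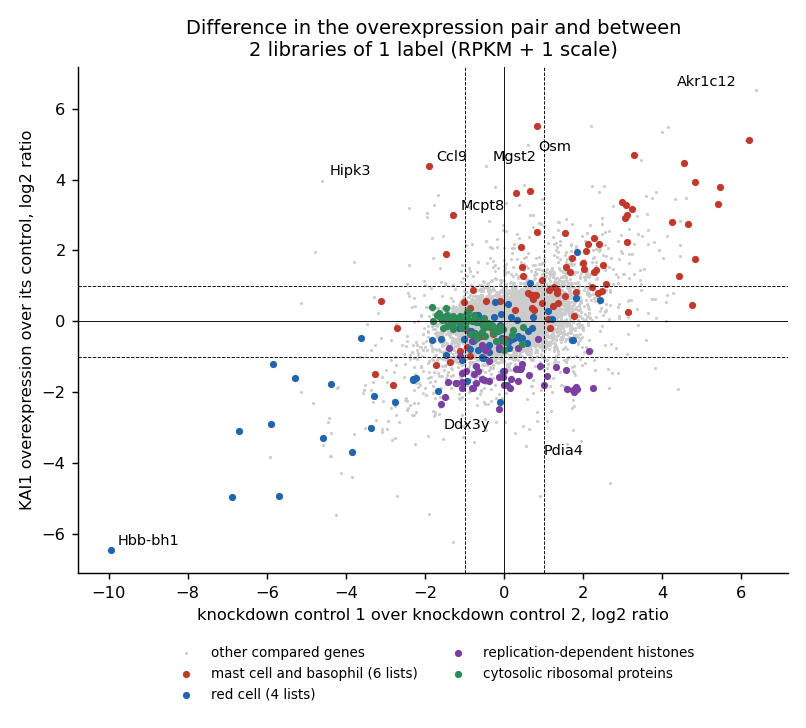
For each compared gene, the log2 ratio of knockdown control 1 over 2 (horizontal) and of KAI1 overexpression over its control (vertical), both on the RPKM + 1 scale, with dashed lines at 2-fold. Many mast cell genes lie in the upper right and many red cell genes in the lower left, whereas Ccl9, Mcpt8 and Hipk3 are higher in KAI1 overexpression and lower in knockdown control 1, and the histone genes lie low in the overexpression pair across a wide range of the horizontal axis.

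Neighbouring genes lay in 1 direction in 12 runs of at least 3 compared genes that were higher and 10 that were lower. No reference count stands beside these runs. The histone, adult beta globin, tryptase and Mcpt genes among them are alike in sequence, so such neighbours are not separate observations. Besides the chemokine, histone and globin runs named above, the higher runs included 4 tryptase-type genes on chromosome 17 (Prss34, Tpsab1, Tpsb2 and Tpsg1, 25435339 to 25570728), 4 Mcpt genes on chromosome 14 (56645701 to 56704034), and Ncf4, Csf2rb2 and Csf2rb on chromosome 15. The lower run of 3 on chromosome Y held Kdm5d, Eif2s3y and Ddx3y. By transcript class, 435 of 9441 protein-coding genes were higher and 446 lower, and 14 of 243 long noncoding RNA genes were higher and 18 lower.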

How the data were processed

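RNA-seq values of 6 EML libraries were used as the authors deposited them, 1 RPKM value per RefSeq entry, per the file headers. Of tools and builds, the submitters' processing notes give TopHat2 2.0.9, Bowtie, Cufflinks and the build mm9, and settings, strandedness and RNA selection are not given in the sources used here. Of 23170 entries 24 repeated another, which left 23146. Symbols came from a RefSeq table for 22836 entries and a GENCODE table for 129, and 181 stayed unnamed. The 675 small RNA entries (span under 300 bp or a small RNA class) and 1 long unnamed entry were left out. Ratios are log2((RPKM + 1) of KAI1 overexpression over (RPKM + 1) of its control), with 2-fold as the limit, computed in Python 3.11.15 with pandas 2.3.3. Since each group has 1 library there is no test.

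Genes named are Cd82, the 15 highest and 15 lowest ratios, and members of 44 gene lists, of which the STAT5 and Y chromosome lists were added after values were seen. Genes outside this rule are marked as chosen after their values were seen, among them Rmrp, Rpph1, Malat1, Neat1, Ercc2 and Kctd12, and those named in neighbour runs. A few genes of the lists and markers are not reported here by name. The members and lists were chosen with earlier results of these data known. Where a symbol has several entries, the one with the highest mean RPKM is given. Of 1310 list genes 990 were compared. Depth was estimated from whole-read steps among low values, with the absolute depth of the overexpression control from 595 entries. RPKM differences do not correct for RNA composition, and the median ratio was 0.007. The alternatives were other pseudocounts, other filters, 2 other scalings and small RNAs kept. Coordinates of genes are mm9 and those of promoters GRCm38.p6.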

Additional observations from a re-analysis of the deposited data

Results flagged for a closer look

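The long entry without a symbol on chromosome 17, kept out of the compared genes, held a signal in data that no comparison uses. Its level was 7777 RPKM in KAI1 overexpression, while its control listed 0. In the knockdown arm, 7192 and 4448 RPKM were listed for the controls, and 7101 RPKM and 0 after KAI1 knockdown.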

How the results depend on the processing

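No paired analysis was possible because each overexpression group has 1 library. The counts of higher and lower genes were 458 and 469, and became 243 and 219 with a pseudocount of 5 RPKM and 301 and 275 with a mean of at least 5 RPKM. Lower red cell membrane and enzyme genes were 8, and 3 under either of these settings. In both settings fewer or lower-weighted low genes enter by construction. The other settings, which were a pseudocount of 0.1 RPKM, no filter, centring on the median, quantile normalization and small RNAs kept, left both counts and the counts of the other lists tracked here (granule proteases, type 2 cytokines, mast cell surface, globins, histones, immediate early, stem and progenitor) within 1.5 times the reported value. No named gene that was 2-fold apart changed direction in any of the 7 settings. Of 239 such genes, 68 fell under 2-fold with a pseudocount of 5 RPKM and 0 under the other settings, where 184 of the 239 passed the stricter filter. Leaving out a replicate could not be tried within the pair. Low values rest on few reads: about 6 for Fcer1a and 11 for Ms4a2 in the control.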
